A study of Mus musculus with 24 samples.

Results

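The integrated stress response and the unfolded protein response were followed through 10 genes in dorsal telencephalon and neural progenitor cultures of *Cep135* mutant mouse embryos. The genes were chosen by symbol, as targets of ATF4 and as genes of endoplasmic reticulum (ER) stress, with earlier results of these data known. All 10 were found among the 54658 genes of the table. They are the transcription factors *Atf4*, *Ddit3* and *Xbp1*, the feedback inhibitor *Trib3*, the amino acid enzymes *Asns* and *Psat1* and the glutathione enzyme *Chac1*. The others are the metabolic regulator *Sesn2* and the ER proteins *Hspa5* and *Herpud1*. CEP135 is a centrosomal protein, and its loss in mice is a model of primary microcephaly. Mutants carried the label Cep135 (-/-) and controls Cep135 (+/+), with 3 embryos of each genotype at E11.5 (mutants A, B and C, controls D, E and F) and 3 of each at E14.5 (mutants 1, 2 and 6, controls 3, 4 and 5). The mutant allele was a germline deletion, present in all cells of the embryo. Each embryo gave 1 library of dorsal telencephalon, called cortex here. Cells of the 6 E14.5 embryos were also dissociated with papain, grown as neurospheres in a serum-free medium with EGF and FGF2, and sequenced after 12 h and 24 h. The 24 libraries therefore hold 12 embryos, and the 18 libraries of E14.5 origin hold 6. For the cortex of mutant 6 the labels disagree on the age, and its title, E14.5, was followed.

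As background, the integrated stress response starts when one of a set of kinases, which sense amino acid shortage, ER stress, viral RNA or heme deficiency, phosphorylates the initiation factor eIF2. General translation then falls while the mRNA of *Atf4* is translated more efficiently, and the ATF4 protein induces genes for amino acid synthesis, amino acid import and tRNA charging. The unfolded protein response answers misfolded protein in the ER through the sensors PERK, IRE1 and ATF6. PERK feeds into ATF4, IRE1 splices the mRNA of *Xbp1*, and ATF6 and spliced XBP1 induce ER chaperones such as *Hspa5* and degradation factors such as *Herpud1*. Genes driven mainly by ATF4 and genes driven mainly by the ER branches can therefore be read side by side. Read counts measure neither the translation of *Atf4* nor the splicing of *Xbp1*.

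The values are normalized read counts, the reads at the 3′ ends of each gene's transcripts divided by 1 size factor per library. The libraries held 4732781 to 11645213 reads on genes in the 23 libraries where reads could be recovered. At 24 h of culture the mutants (7903426 to 11645213) and the controls (4732781 to 5709443) did not overlap in depth, and neither did their shares of *Gm42418*, an RNA with ribosomal sequence (20.5% to 23.05% against 6.26% to 13.9%). The tissue carried the markers it should, with 6 of 6 apical progenitor markers (*Sox2*, *Pax6*, *Hes1*, *Hes5*, *Vim* and *Fabp7*) summing to 11263 to 14059 at E11.5, 6960.0 to 8415 at E14.5 and 7130.2 to 11538 in the cultures. RNA of markers of other cell types differed between cultures and tissue. The 6 microglial markers summed to 401 to 943 in the E14.5 cortices and to 6.31 to 61.3 in the cultures, the 5 endothelial markers to 769 to 915 and 7.86 to 102, and the 5 markers of meninges and mesenchyme to 1434 to 2442 and 118 to 289.8. The 5 erythroid markers summed to 15792 to 19986 and 19313 to 65933. None of these markers was at 0 in all libraries of the tissue or of the cultures. Their part in the results was not tested, and in bulk RNA fewer cells of a type and less RNA per cell cannot be told apart.

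The promoters of the members were searched for exact matches to known stress elements. RefSeq sequence of GRCm38.p6 was found for 10 of 10 members, in windows from 250 bases before to 50 bases after each annotated start, and each motif was searched on both strands. The element bound by ATF4 with a C/EBP partner, written TGATGNAA, lay in 4 members, *Asns*, *Chac1*, *Herpud1* and *Trib3*, and in 3.97% of all 32851 promoters. The ER stress response element, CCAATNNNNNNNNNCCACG, lay in *Hspa5* and in 0.119% of all promoters, and the shorter second form of it, ATTGG, any base and CCACG, in *Herpud1* and in 0.0365%. The cAMP response element TGACGTCA, in 1.79% of all promoters, lay in 0 members. No match overlapped another. These matches describe the letters of the windows and were not tested as binding sites. Near matches and sites outside the windows were not searched, so a gene without a match may still carry an element. The 250 bases before the start are shown for 4 genes that stand for both arms. *Asns* and *Chac1* stand for the ATF4 arm (chr6:7693210-7693459, minus strand, and chr2:119350992-119351241, plus strand). *Hspa5* and *Herpud1* stand for the ER arm (chr2:34771840-34772089 and chr8:94386179-94386428, both plus strand). The bases run 5′ to 3′ along the gene, with the matches in capitals:
*Asns*: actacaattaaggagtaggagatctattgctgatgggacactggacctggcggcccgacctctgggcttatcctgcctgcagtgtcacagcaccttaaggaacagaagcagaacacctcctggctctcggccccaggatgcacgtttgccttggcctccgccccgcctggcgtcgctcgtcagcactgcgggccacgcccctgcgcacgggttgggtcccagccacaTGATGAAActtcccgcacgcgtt
*Chac1*: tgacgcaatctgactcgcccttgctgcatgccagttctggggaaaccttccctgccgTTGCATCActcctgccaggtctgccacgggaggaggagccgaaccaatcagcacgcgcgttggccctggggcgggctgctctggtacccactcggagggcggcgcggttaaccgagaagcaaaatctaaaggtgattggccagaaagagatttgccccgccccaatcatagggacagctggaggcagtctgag
*Hspa5*: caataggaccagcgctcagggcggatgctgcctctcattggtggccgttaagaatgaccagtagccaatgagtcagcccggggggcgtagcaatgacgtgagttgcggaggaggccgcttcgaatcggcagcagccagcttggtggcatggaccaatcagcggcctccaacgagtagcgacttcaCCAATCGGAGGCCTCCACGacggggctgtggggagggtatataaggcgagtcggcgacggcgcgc
*Herpud1*: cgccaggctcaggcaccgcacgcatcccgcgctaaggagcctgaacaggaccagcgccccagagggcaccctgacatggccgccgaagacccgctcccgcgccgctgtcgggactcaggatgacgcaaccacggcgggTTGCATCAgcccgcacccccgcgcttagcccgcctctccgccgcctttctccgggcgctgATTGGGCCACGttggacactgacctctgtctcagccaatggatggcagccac
In *Asns* the capitals mark bases -23 to -16 from the start and in *Chac1* bases -193 to -186, where the element reads on the opposite strand. In *Hspa5* they mark the ER stress response element at -65 to -47. In *Herpud1* the first capitals mark the ATF4 element at -112 to -105, on the opposite strand, and the second the other form of the ER element at -52 to -42. The match in *Trib3* lay 15 to 22 bases after the start.

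The first question was how these genes differed between freshly dissected E14.5 cortex and cells of the same embryos in culture. In the cortices 9 genes reached a mean of 10, and of these 6 were higher in culture and 0 were lower at both 12 h and 24 h, with genotype as a term in the fit. They were *Atf4*, *Ddit3*, *Asns*, *Chac1*, *Sesn2* and *Herpud1*, with log2 fold changes from 0.56 to 3.56 at 12 h and from 0.51 to 3.28 at 24 h. The other gene, *Trib3*, reached the minimum mean of 10 only through the cultures, where it was high. Its call, which makes 7 of 10, is not counted. Since the members were chosen with earlier results of these data known, their counts are descriptions. *Psat1*, *Hspa5* and *Xbp1* did not pass the test at either time. Culture changed many genes. Of those tested 30.2% passed at 12 h (14.1% higher, 16.1% lower) and 41.6% at 24 h (20.1% and 21.5%). The median log2 fold change of the 9 genes was 1.20 at 12 h and 0.82 at 24 h, against -0.06 and -0.05 over all genes tested. All p-values are two-sided, from limma, adjusted by Benjamini-Hochberg over all genes tested and called under 0.05, and fold changes are on the scale of the normalized read count plus 1.

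**Figure D1:**
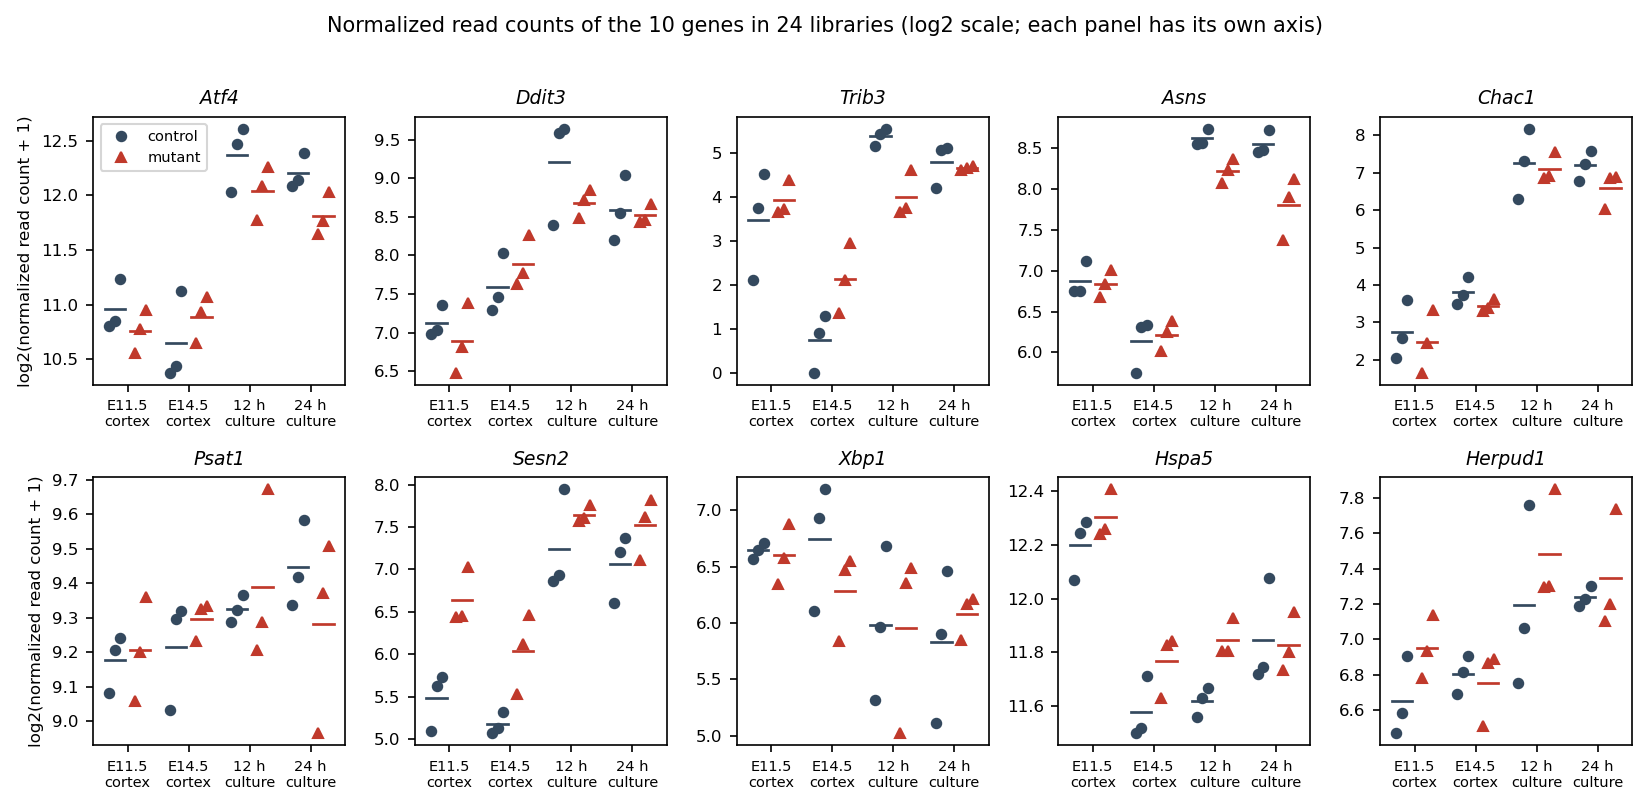
Normalized read counts of the 10 genes on the log2 scale, log2(normalized read count + 1), in the 24 libraries by stage. Circles are controls, triangles mutants, and bars the means of 3 libraries on that scale. All 12 cultures sit above all 6 E14.5 cortices for *Atf4*, *Trib3*, *Asns*, *Chac1* and *Sesn2*. The cultures overlap the E14.5 cortices for *Ddit3*, *Herpud1*, *Psat1*, *Xbp1* and *Hspa5*. The share of all genes with every culture above every cortex was not counted.

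*Atf4* (ENSMUSG00000042406, chromosome 15, 80255184 to 80257541, plus strand; all gene positions are of GRCm38) encodes the transcription factor that carries the integrated stress response. Its normalized read count in E14.5 cortex was 1329, 1382 and 2233 in controls 3, 4 and 5 and 2144, 1601 and 1955 in mutants 1, 2 and 6. After 12 h of culture the values were 6239, 5662 and 4188 in the controls and 4900.3, 4356 and 3504 in the mutants, in the same order, and after 24 h they were 4344, 5364 and 4526 in the controls and 3195, 4186 and 3488 in the mutants. Every culture lay above every cortex at both times. The share of all genes that did so was not counted, here and for the genes below. The log2 fold change over cortex was 1.44 (SE 0.16, adjusted p = 6.98e-06) at 12 h and 1.25 (SE 0.14, adjusted p = 3.10e-06) at 24 h.

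*Ddit3* (ENSMUSG00000025408, chromosome 10, 127290774 to 127296288, plus strand) encodes CHOP, a factor that ATF4 induces and that is linked to cell death under lasting stress. A second gene model of the same name overlaps it on the same strand, so its count is uncertain. In E14.5 cortex it had 155, 175 and 261 in the controls and 307, 219 and 197 in the mutants, after 12 h 768, 796 and 337 in the controls and 459, 358 and 421 in the mutants, and after 24 h 373, 526 and 293 in the controls and 406, 351 and 344 in the mutants. Controls 3 and 4 at 12 h were far above the other 4 cultures of that time, and mutant 1 had the highest cortex value, above the lowest culture at 24 h. *Ddit3* differed from cortex by a log2 fold change of 1.20 (SE 0.23, adjusted p = 9.26e-04) at 12 h and 0.82 (SE 0.16, adjusted p = 7.22e-04) at 24 h. With the share of *Gm42418* as a further term, a fit added after the data had been seen, the call at 12 h was lost (0.94, adjusted p = 0.0587 from limma). That share was 9.78% to 15.01% in the E14.5 cortices and 10.7% to 34.8% at 12 h.

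*Xbp1* (ENSMUSG00000020484, chromosome 11, 5520659 to 5525893, plus strand) encodes the factor of the IRE1 branch. Its values were 145, 121 and 68.0 in the controls and 56.5, 92.7 and 87.7 in the mutants in E14.5 cortex, 61.3, 38.7 and 102 in the controls and 80.9, 31.6 and 88.7 in the mutants at 12 h and 87.4, 33.7 and 58.8 in the controls and 70.9, 56.7 and 73.3 in the mutants at 24 h. The groups overlapped, and the cultures of control 4 and mutant 2 were low at 12 h. The log2 fold change was -0.54 (SE 0.30, adjusted p = 0.186) at 12 h and -0.56 (SE 0.25, adjusted p = 0.0750) at 24 h, neither past the threshold. Without mutant 1's or control 5's cortex it passed at 24 h as lower, with -0.70 (adjusted p = 0.0312) and -0.66 (adjusted p = 0.0461).

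*Trib3* (ENSMUSG00000032715, chromosome 2, 152337422 to 152344032, minus strand) encodes a pseudokinase that ATF4 and CHOP induce and that in turn holds ATF4 back. It was close to absent from E14.5 cortex, with 0, 1.45 and 0.872 normalized reads in controls 3, 4 and 5 and 6.77, 3.31 and 1.57 in mutants 1, 2 and 6, which are 0 to 6 reads. At 12 h it had 42.5, 45.8 and 34.9 in the controls and 23.4, 11.6 and 12.5 in the mutants, and at 24 h 32.8, 33.7 and 17.5 in the controls and 24.4, 25.3 and 23.6 in the mutants. All 12 cultures were above all 6 cortices. The gene passed the filter on low values only through the cultures. Its log2 fold change was 3.26 (SE 0.61, adjusted p = 8.38e-04) at 12 h and 3.30 (SE 0.47, adjusted p = 2.63e-05) at 24 h. Its size rests on the pseudocount, since the cortex values are so low, and at 12 h ran from 2.11 with a pseudocount of 5 to 4.21 with 0.1.

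*Asns* (ENSMUSG00000029752, chromosome 6, 7675169 to 7693254, minus strand) encodes asparagine synthetase, a target of ATF4 under amino acid shortage. Normalized read counts in E14.5 cortex were 52.9, 79.8 and 78.5 in the controls and 82.4, 64.0 and 75.2 in the mutants. They were 376, 378 and 425 in the controls and 329, 269 and 299 in the mutants at 12 h and 423, 356 and 349 in the controls and 279, 165 and 237 in the mutants at 24 h, again with embryos in the order given for *Atf4*. The lowest culture, mutant 2 at 24 h, was higher than the highest cortex. Over cortex *Asns* had a log2 fold change of 2.25 (SE 0.15, adjusted p = 4.85e-08) at 12 h and 2.0 (SE 0.18, adjusted p = 1.58e-07) at 24 h.

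*Chac1* (ENSMUSG00000027313, chromosome 2, 119351229 to 119354381, plus strand) encodes an enzyme that degrades glutathione. In cortex it had 17.6, 10.2 and 12.2 in the controls and 11.3, 8.83 and 9.40 in the mutants, at 12 h 159, 77.5 and 285 in the controls and 187, 119 and 115 in the mutants, and at 24 h 191, 109.5 and 149 in the controls and 115, 64.8 and 117 in the mutants. Every culture was above every cortex, and the 12 h cultures of the controls were spread widely. *Chac1* had log2 fold changes of 3.56 (SE 0.30, adjusted p = 4.07e-07) at 12 h and 3.28 (SE 0.23, adjusted p = 7.57e-09) at 24 h. These were the highest of the 9 genes at both times. Its cortex values rest on 8 to 15 reads. Over the alternatives its log2 fold change at 12 h ran from 3.19 to 4.21.

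*Psat1* (ENSMUSG00000024640, chromosome 19, 15904678 to 15947337, minus strand) encodes an aminotransferase of serine synthesis. It stayed at 522 to 644 in the 6 E14.5 cortices, 589.9 to 815 at 12 h and 499 to 767 at 24 h, and the groups overlapped. Its difference from cortex was 0.10 (SE 0.10, adjusted p = 0.475) on the log2 scale at 12 h, with a 95% interval of -0.11 to 0.31, and 0.11 (SE 0.10, adjusted p = 0.422) at 24 h.

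*Sesn2* (ENSMUSG00000028893, chromosome 4, 132492032 to 132510501, minus strand) encodes sestrin 2, a stress-induced inhibitor of mTORC1 that senses leucine and that both ATF4 and p53 are known to induce. The gene model Gm12981 overlaps it on the same strand, so its count is uncertain. In E14.5 cortex it had 38.8, 32.7 and 34.0 in the controls and 86.9, 68.5 and 45.4 in the mutants. At 12 h it had 121, 245 and 115 in the controls and 215, 189 and 193 in the mutants, and at 24 h 146, 165 and 96.3 in the controls and 226, 196 and 137 in the mutants. The lowest culture, control 5 at 24 h, was above the highest cortex, mutant 1. *Sesn2* was higher than in cortex by 1.84 (SE 0.22, adjusted p = 1.60e-05) on the log2 scale at 12 h and 1.68 (SE 0.19, adjusted p = 2.96e-06) at 24 h.

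*Hspa5* (ENSMUSG00000026864, chromosome 2, 34771970 to 34777547, plus strand) encodes BiP, the main chaperone of the ER lumen and the usual readout of the unfolded protein response. It had 2927, 2893 and 3355 in the controls and 3665, 3165 and 3635 in the mutants in E14.5 cortex, 3012, 3248 and 3167 in the controls and 3575, 3899 and 3576 in the mutants at 12 h and 3367, 4317 and 3429 in the controls and 3566, 3952 and 3402 in the mutants at 24 h. The ranges of cortices and cultures overlapped, with control 4 at 24 h as the highest value. On the log2 scale the difference from cortex was 0.06 (SE 0.08, adjusted p = 0.597) at 12 h, with a 95% interval of -0.11 to 0.23, and 0.17 (SE 0.09, adjusted p = 0.149) at 24 h.

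*Herpud1* (ENSMUSG00000031770, chromosome 8, 94386438 to 94395377, plus strand) encodes a membrane protein of ER-associated degradation. It had 102, 119 and 112 in the controls and 117, 116 and 90.0 in the mutants in E14.5 cortex, 107, 133 and 216 in the controls and 156, 157 and 229 in the mutants at 12 h and 149, 157 and 145 in the controls and 212, 137 and 146 in the mutants at 24 h. At 12 h the culture of control 3 lay within the range of the cortices and the other 5 above it, and at 24 h all 6 cultures were above all cortices. *Herpud1* had log2 fold changes of 0.56 (SE 0.18, adjusted p = 0.0321) at 12 h and 0.51 (SE 0.14, adjusted p = 0.00588) at 24 h. The call at 12 h was lost without any 1 of 6 libraries, the cortices of control 3 and mutants 1, 2 and 6 and the cultures of control 5 and mutant 6 (log2 fold change 0.45 to 0.57, adjusted p = 0.0509 to 0.0788), with no filter on low genes (0.56, adjusted p = 0.0502), and with the added term for *Gm42418* (0.66, adjusted p = 0.110).

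**Figure D2:**
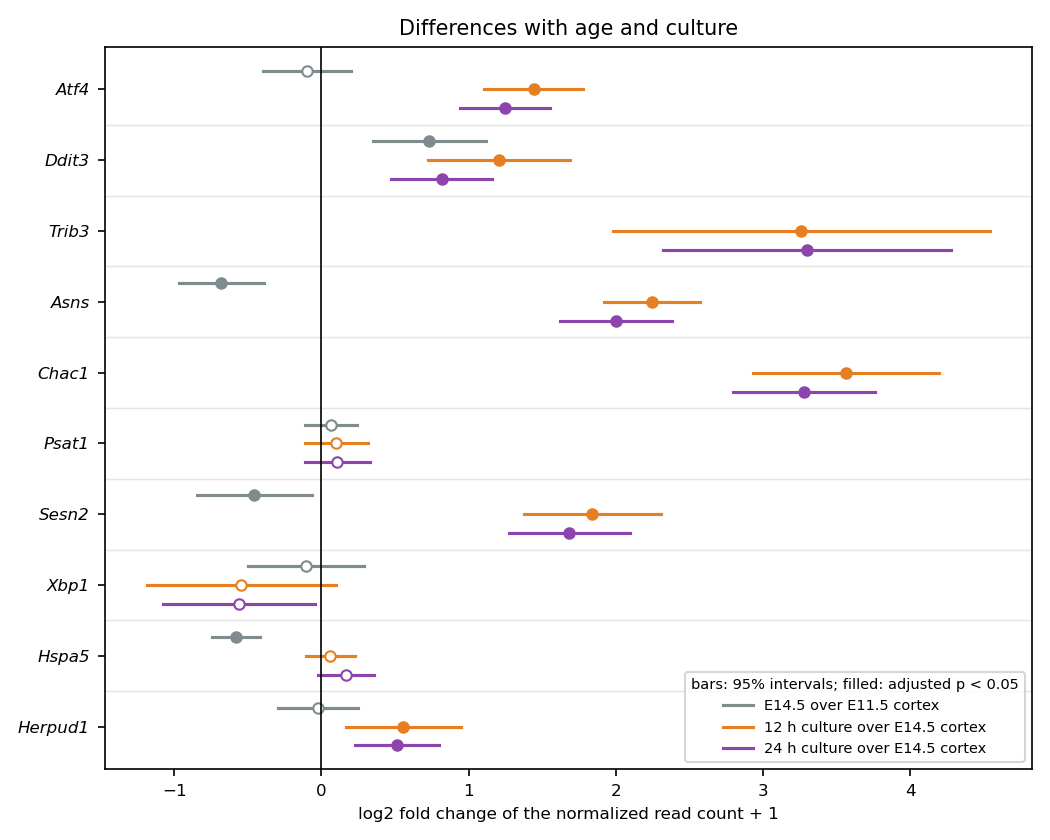
Log2 fold changes of the 10 genes between E14.5 and E11.5 cortex (grey), 12 h culture and E14.5 cortex (orange) and 24 h culture and E14.5 cortex (purple), on the scale of the normalized read count plus 1. Bars are 95% intervals and filled points passed an adjusted p of 0.05. *Trib3* and *Chac1* have no grey point because their mean in the cortices was under 10. The orange and purple points of *Asns*, *Chac1*, *Sesn2* and *Trib3* sit between 1.68 and 3.56.

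Each of the 6 genes was higher in culture than in cortex in 6 of 6 embryos at 12 h and in 6 of 6 at 24 h, where 13.2% and 18.1% of all genes tested were so. *Trib3* was so as well and, having passed the filter only through the cultures, is not counted. *Psat1*, *Hspa5* and *Xbp1* were higher at 12 h in 3 of 6 embryos each, and at 24 h in 5, 4 and 1 of 6. Between 12 h and 24 h 0 of the 10 genes passed the test with limma, 0 at an unadjusted p under 0.05, and 0 with edgeR and with DESeq2 on the recovered reads, and 0.292% of all genes did. *Ddit3* was lower at 24 h than at 12 h in 6 of 6 embryos, as were 3.18% of all genes, with a log2 fold change of -0.39 (SE 0.19, adjusted p = 0.531) and a 95% interval of -0.80 to 0.02. *Atf4* was lower in 5 of 6 (-0.19 (SE 0.11, adjusted p = 0.597)), and *Asns* in 5 of 6 (-0.25 (SE 0.14, adjusted p = 0.595)).

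**Figure D3:**
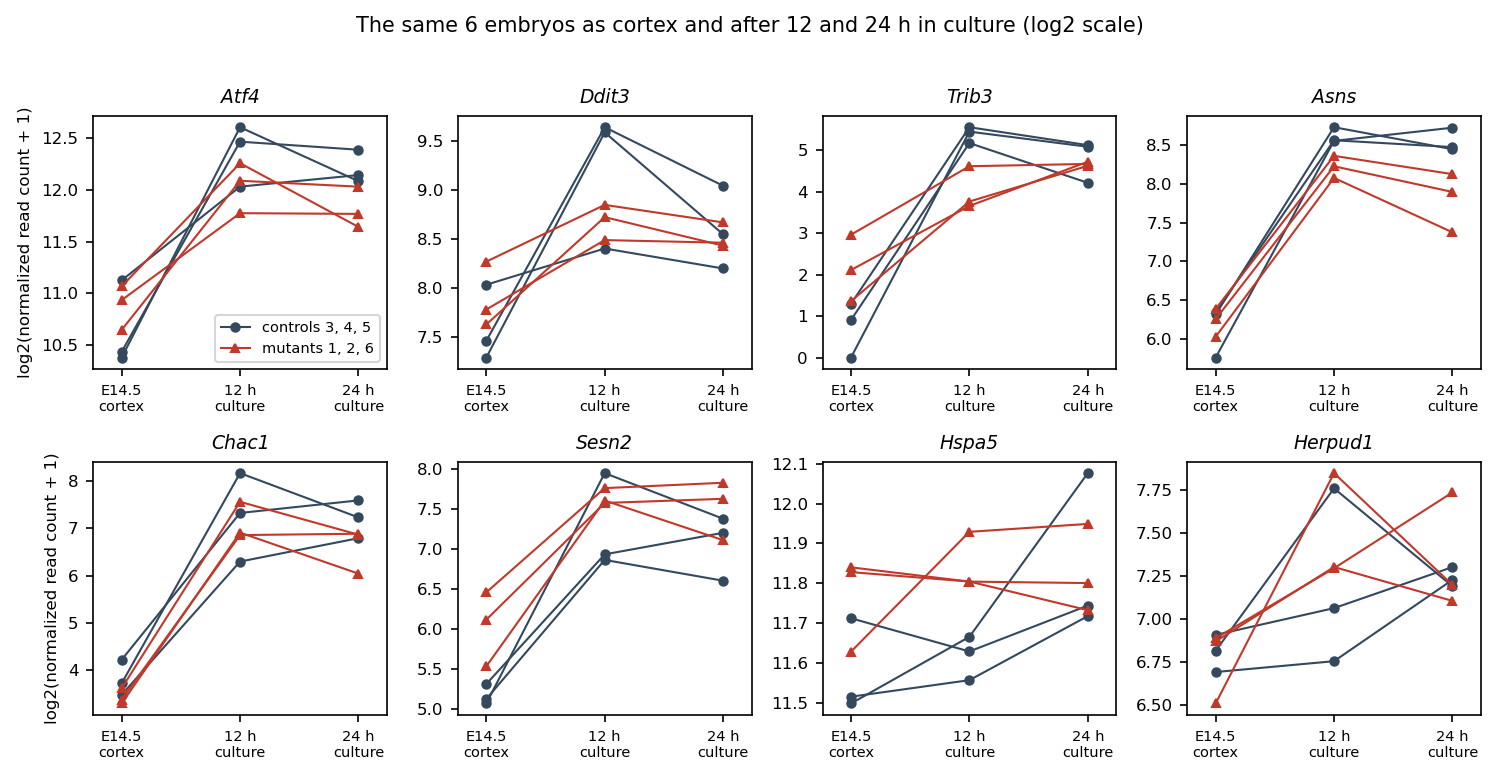
Log2(normalized read count + 1) of 8 genes in E14.5 cortex, 12 h culture and 24 h culture, with 1 line per embryo (log2 scale, each panel with its own axis). Circles are controls 3, 4 and 5 and triangles mutants 1, 2 and 6. All 6 lines rise from cortex to 12 h for *Atf4*, *Ddit3*, *Trib3*, *Asns*, *Chac1*, *Sesn2* and *Herpud1*, and 3 of 6 do for *Hspa5*.

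The wider pathway was read from 83 other genes in 8 lists, of which 81 were tested at 12 h. These lists too were chosen with earlier results of these data known, so their counts are descriptions. At 12 h, in the 3 amino acid lists genes passed as higher and none as lower, and the 3 ER lists had 2 higher and 4 lower calls. *Atf3*, *Cth* and *Slc7a3* reached the minimum mean of 10 only through the cultures, and without these 3 the calls were 33 higher and 5 lower of 78 genes. Of 12 cytosolic aminoacyl-tRNA synthetases, which charge tRNAs with amino acids, 11 were higher at 12 h and 0 lower, with a median log2 fold change of 0.84 against -0.06 over all genes. Cysteinyl-tRNA synthetase *Cars* went from 215 ± 29.6 in cortex to 705 ± 127 at 12 h (SD, n = 6 each), a log2 fold change of 1.70 (SE 0.13, adjusted p = 1.94e-07). *Gars* had 0.84, *Nars* 0.90 and *Tars* 0.77. Of the 8 amino acid transporters other than *Slc7a3*, 6 were higher and 0 lower (median 0.62). They included *Slc38a2*, a carrier of small neutral amino acids, at 1519 ± 141 and 2646 ± 179, the glycine carrier *Slc6a9* (1.51) and the glutamine carrier *Slc1a5* (0.97). The cationic amino acid carrier *Slc7a3*, at 2.12 ± 1.60 and 67.2 ± 30.7, is not counted.

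Of 12 enzymes of amino acid synthesis and one-carbon metabolism, 6 were higher at 12 h and 0 lower (median 0.60). The mitochondrial folate enzyme *Mthfd2* went from 297 ± 66.3 to 995 ± 188, a log2 fold change of 1.75 (SE 0.15, adjusted p = 5.52e-07), and its neighbours in that pathway *Shmt2* and *Aldh1l2* had 0.96 and 1.01. The branched-chain aminotransferase *Bcat1* had 0.74. Of 8 partner and feedback factors 7 were tested. Without *Atf3*, 3 of 6 were higher and 0 lower (median 0.38). The translation repressor *Eif4ebp1* went from 32.9 ± 9.98 to 142 ± 20.0, and the factors *Atf5* (0.85) and *Cebpg* (0.49) were the others. *Atf3* (2.53) is not counted, since it reached the minimum mean only through the cultures. Of 12 genes for the eIF2 kinases, the exchange factor eIF2B and the phosphatase 5 were higher and 1 lower (median 0.12). *Ppp1r15a*, which brings the phosphatase back to eIF2, went from 32.4 ± 5.72 to 99.9 ± 22.3, and the PERK gene *Eif2ak3* had 1.0 (SE 0.22, adjusted p = 0.00341). The eIF2B subunits *Eif2b4* (0.41) and *Eif2b3* (0.59) were higher as well.

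Of 14 chaperones and folding enzymes 1 was higher, the lectin chaperone *Canx* (0.30 (SE 0.09, adjusted p = 0.0177)), and 2 were lower, *Sdf2l1* (-1.28 (SE 0.33, adjusted p = 0.00757)) and the disulfide isomerase *Pdia3* (-0.29 (SE 0.08, adjusted p = 0.0146)), while *Pdia4* had 0.33 (SE 0.13, adjusted p = 0.0608). Of 6 sensors and processing proteases 0 were higher and 1 lower, the membrane-bound factor *Creb3l2* (-1.63 (SE 0.39, adjusted p = 0.00494)). The proteases *Mbtps1* and *Mbtps2*, which release ATF6, had -0.25 and 0.57, and the IRE1 gene *Ern1* -0.41, none past the threshold. Of 10 genes of ER-associated degradation 9 were tested, 1 was higher, *Selenos* (0.35 (SE 0.10, adjusted p = 0.0127)), and 1 lower, the vesicle coat gene *Sec24d* (-1.38 (SE 0.44, adjusted p = 0.0276)), and *Derl2* had -0.24 and *Sec61b* -0.22, both short of the threshold. The medians of these 3 lists were -0.05, -0.17 and -0.05. At 24 h, again without *Atf3*, *Cth* and *Slc7a3*, 35 of 77 genes were higher and 5 lower, against 33 and 5 of 78 at 12 h. Of the aminoacyl-tRNA synthetases 11 were higher and 1 lower at 24 h. Of the transporters 5 were higher and 0 lower, of the synthesis enzymes 8 were higher and 1 lower, and 1 chaperone was higher and 1 lower.

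**Figure D4:**
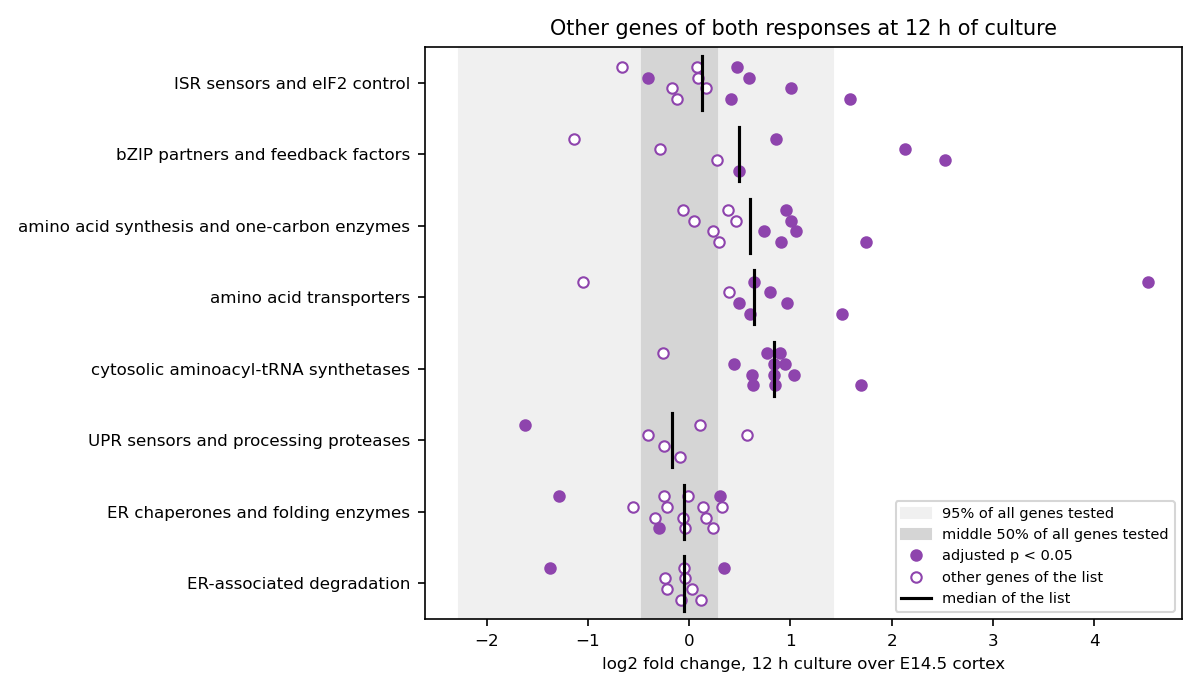
Log2 fold change of 12 h culture over E14.5 cortex for the other genes of both responses, by list. Points are genes, filled where the adjusted p was under 0.05, black bars list medians, and grey bands the middle 50% and 95% of all genes tested. The median bar of the aminoacyl-tRNA synthetases lies at 0.84 and that of the ER chaperones at -0.05.

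The second comparison was of age in the cortex, E14.5 over E11.5, with genotype as a term. Of the 10 genes 8 had a mean of at least 10 in the 12 cortices, and of these 1 was higher at E14.5 and 3 were lower, while 53.1% of all genes tested passed, 23.8% higher and 29.3% lower. The share of all genes whose values did not overlap between the ages was not counted. The cortices of each age came from embryos with different label prefixes, so age and prefix cannot be told apart.

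*Hspa5* was 4996, 4855 and 4301 in controls D, E and F and 5432, 4897 and 4846 in mutants A, B and C at E11.5, all above the 6 values at E14.5 (at most 3665). Its log2 fold change was -0.58 (SE 0.08, adjusted p = 1.12e-05). *Asns* had 107, 138 and 106 in the controls and 114, 102 and 128 in the mutants at E11.5, also without overlap, and a log2 fold change of -0.68 (SE 0.14, adjusted p = 5.44e-04). *Sesn2* at E11.5 was 33.3, 48.5 and 52.1 in the controls and 85.8, 129 and 86.5 in the mutants, which overlapped E14.5, and had a log2 fold change of -0.46 (SE 0.18, adjusted p = 0.0462). That call was lost without any 1 of 9 of the 12 cortices (log2 fold change -0.49 to -0.33, adjusted p up to 0.121), namely mutants 2, 6, A, B and C and controls 4, 5, E and F, with no filter on low genes, with TMM and with all 24 libraries in 1 fit (-0.46 to -0.45, adjusted p = 0.0504 to 0.0850).

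Among the genes tested, *Ddit3* was the one called higher at E14.5. It had 125, 130.5 and 163 in the controls and 88.4, 166 and 111 in the mutants at E11.5, and mutant B and control F lay within the range of the E14.5 cortices. The log2 fold change was 0.73 (SE 0.18, adjusted p = 0.00291). *Atf4* had 1841, 1791 and 2412 in the controls and 1508, 1979.8 and 1750.1 in the mutants at E11.5 and overlapped E14.5, with -0.10 (SE 0.14, adjusted p = 0.580). *Psat1* (0.06 (SE 0.08, adjusted p = 0.532)), *Xbp1* (-0.11 (SE 0.19, adjusted p = 0.654)) and *Herpud1* (-0.02 (SE 0.13, adjusted p = 0.893)) did not pass the test. *Trib3* and *Chac1* were not tested. *Trib3* had 22.2, 3.35 and 12.4 in the controls and 20.0, 12.3 and 11.54 in the mutants at E11.5. Of these 6 values, 5 were above all E14.5 cortices. *Chac1* had 11.1, 5.02 and 3.11 in the controls and 9.03, 4.46 and 2.16 in the mutants at E11.5. At E14.5 its values ran higher, from 8.83 to 17.6 over both genotypes, with overlap.

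Of the 83 pathway genes 78 were tested for age, and 8 were higher and 35 lower at E14.5. *Cbs*, called higher, reached the minimum mean only through the E14.5 cortices, and *Cth*, called lower, only through the E11.5 cortices. Without *Cbs* and *Cth* the calls were 7 higher and 34 lower of 76 genes. The aminoacyl-tRNA synthetases had 7 lower and 0 higher of 12 (median log2 fold change -0.35 against -0.08 over all genes), and the ER chaperones 9 lower and 1 higher of 14 (median -0.43). The apical progenitor markers were lower at E14.5 as well, as given above, and the 6 markers of postmitotic neurons were higher (19828 to 29624 against 5353 to 8000.3). The part of cell composition in these differences was not tested.

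The third comparison was of mutants with controls. Of the members, 0 passed the test at E11.5, at E14.5, at 12 h or at 24 h taken alone. Of all genes tested, 0.0149%, 0.0736%, 0% and 0.271% did, in this order. At an unadjusted p under 0.05 limma gave 1, 1, 1 and 3 of the members and 991, 1236, 650 and 1414 of all genes. EdgeR and DESeq2, run on the recovered reads at E14.5, 12 h and 24 h, also called 0 members. *Chac1* was under the filter at E11.5, *Trib3* at E14.5, and both over the 12 cortices. Of the 83 pathway genes 0 passed with limma in any genotype comparison, and 2 to 12 did at an unadjusted p under 0.05.

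*Sesn2* was the member that passed over the 12 cortices together, where 0.0952% of all genes were higher in mutants. At E11.5 it was 33.3, 48.5 and 52.1 in controls D, E and F and 85.8, 129 and 86.5 in mutants A, B and C. At E14.5 it was 38.8, 32.7 and 34.0 in controls 3, 4 and 5 and 86.9, 68.5 and 45.4 in mutants 1, 2 and 6. Every mutant was above every control of its age, which held for 7.16% of the genes tested at E11.5, 7.02% at E14.5 and, at both ages, 0.813% of the genes tested. The log2 fold change with age as a term was 1.01 (SE 0.18, adjusted p = 0.0367), a 95% interval of 0.62 to 1.40. It was 1.15 (SE 0.24, adjusted p = 0.334) at E11.5 and 0.87 (SE 0.27, adjusted p = 0.433) at E14.5.

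At E11.5 mutant A and control D shared a label prefix, with 85.8 in the mutant and 33.3 in the control. The titles of mutants B and C have the prefix of controls E and F but their column names have another, so whether these 4 share a prefix is not settled. The call of *Sesn2* was lost without any 1 of the cortices other than that of mutant 6 (log2 fold change 0.91 to 1.06, adjusted p = 0.0650 to 0.135), with quantile normalization (0.99, adjusted p = 0.0549), with all 24 libraries in 1 fit (1.01, adjusted p = 0.0677), and with embryo sex, called from *Xist* and Y-linked genes in these libraries, as a term (0.96, adjusted p = 0.405), where the E14.5 controls were all male and mutants 1 and 2 female. Markers of other cells moved with genotype in the same libraries. At E14.5 the 6 microglial markers summed to 745 to 943 in mutants and 401 to 466 in controls, and the 6 markers of postmitotic neurons to 19828 to 23044 and 27468 to 29624, none of them at 0 throughout. At E11.5 the apical progenitor markers summed to 11263 to 12228 in mutants and 12487 to 14059 in controls. The endothelial markers summed to 1044 to 1160 in mutants and 902 to 1023 in controls. The microglial markers overlapped at that age (398 to 566 and 270 to 418). The part of these markers' cells in the difference was not tested.

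**Figure D5:**
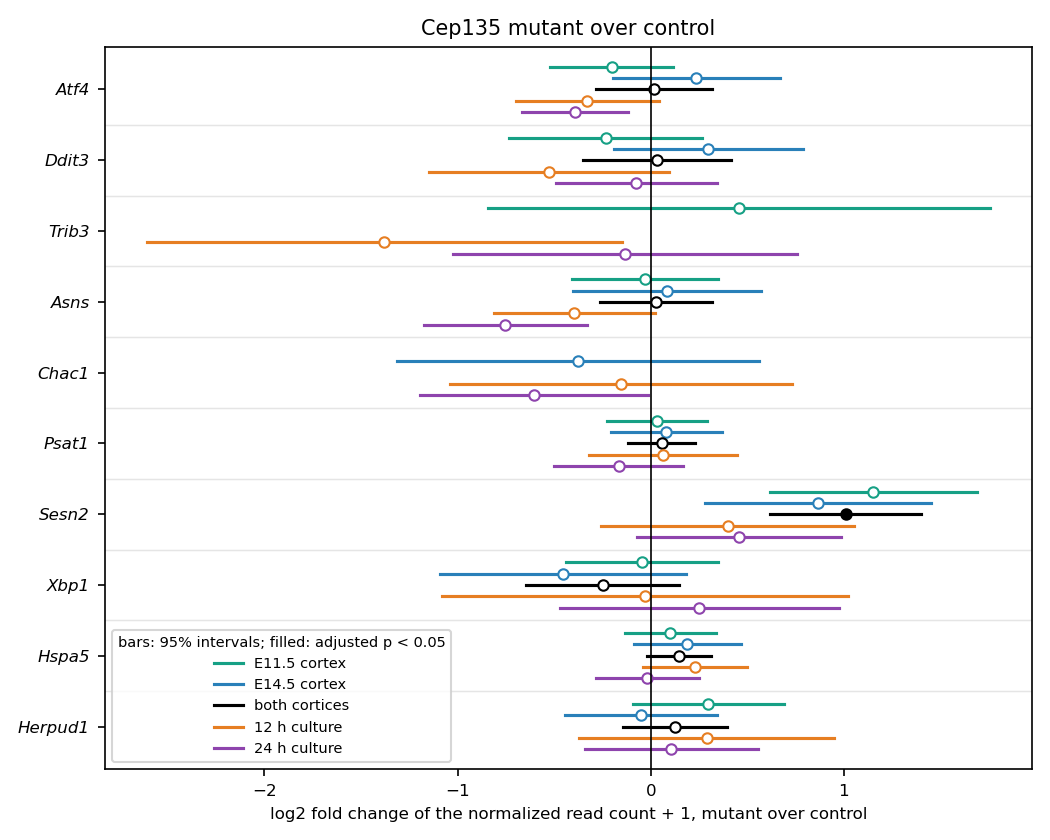
Log2 fold change of mutants over controls for the 10 genes, on the scale of the normalized read count plus 1, in E11.5 cortex, E14.5 cortex, the 12 cortices with age as a term, 12 h culture and 24 h culture. Bars are 95% intervals, and the filled point passed an adjusted p of 0.05. The filled point is that of *Sesn2* over both cortices, at 1.01, and *Asns* at 24 h lies at -0.75. *Trib3* and *Chac1* have no point where their mean was under 10.

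In culture *Sesn2* no longer separated the genotypes. Mutants 1, 2 and 6 had 215, 189 and 193 at 12 h and controls 3, 4 and 5 121, 245 and 115, with control 4 above all mutants. Its log2 fold change was 0.40 (SE 0.30, adjusted p = 0.913) at 12 h and 0.46 (SE 0.25, adjusted p = 0.553) at 24 h. The change of the genotype effect from E14.5 cortex to culture was -0.47 (SE 0.44, adjusted p = 0.808) at 12 h and -0.41 (SE 0.39, adjusted p = 0.846) at 24 h, so a difference between cortex and culture was not shown.

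In culture 0 members passed for genotype, while some did not overlap between genotypes. *Asns* at 24 h was 423, 356 and 349 in controls 3, 4 and 5 and 279, 165 and 237 in mutants 1, 2 and 6, and every mutant was below every control, as in 9.06% of all genes tested. Its log2 fold change was -0.75 (SE 0.20, adjusted p = 0.131), with a 95% interval of -1.17 to -0.33. Over the alternatives its fold change ran from -0.92 to -0.54 and its adjusted p from 0.0468, with no filter on low genes, to 0.939, with the share of *Gm42418* as a term (-0.88). With sex as a term it was -0.65 (adjusted p = 0.423 from limma), and without mutant 2 -0.54 (adjusted p = 0.355 from limma). At 12 h the mutants were below the controls too (-0.40 (SE 0.19, adjusted p = 0.913)), where 5.94% of genes were so. *Atf4* did not overlap between genotypes at 24 h either, with 3195, 4186 and 3488 in the 3 mutants against 4344, 5364 and 4526 in the 3 controls and a log2 fold change of -0.39 (SE 0.13, adjusted p = 0.272). *Chac1* at 24 h had -0.61 (SE 0.28, adjusted p = 0.454), with overlap. At 24 h depth and the share of *Gm42418* separated the genotypes as given above, as did the apical progenitor markers (10039.6 to 11538 in mutants, 8045 to 9056 in controls). So did the sum of 6 genes listed as liver markers, *Alb*, *Afp*, *Apoa1*, *Apoa2*, *Serpina1e* and *Ttr* (5118 to 16471 in mutants and 769 to 3510.2 in controls). *Afp* and *Serpina1e* were at 0 in the controls. Which of the 6 genes carried the sum was not tested, so it does not show liver cells. None of these differences can be told apart from genotype at that time.

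*Trib3* at 12 h was 42.5, 45.8 and 34.9 in the controls and 23.4, 11.6 and 12.5 in the mutants. All mutants were below all controls (as in 5.94% of genes), with a log2 fold change of -1.38 (SE 0.57, adjusted p = 0.913). *Hspa5* at 12 h went the other way, with 3575, 3899 and 3576 in the 3 mutants against 3012, 3248 and 3167 in the 3 controls, all mutants above all controls (as in 5.09% of genes), a difference of 0.23 (SE 0.12, adjusted p = 0.913). *Ddit3* had -0.52 (SE 0.29, adjusted p = 0.913) at 12 h, and *Psat1*, *Xbp1* and *Herpud1* had log2 fold changes between -0.03 and 0.29. None of the 10 genes passed the test of a genotype effect that differed between ages, between culture and cortex or between culture times with limma, edgeR or DESeq2 where these were run, and 0 of all genes passed with limma. At an unadjusted p under 0.05 it was 0 members for age, 1 at 12 h (*Trib3*), 2 at 24 h (*Atf4* and *Asns*) and 0 between the culture times.

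For 3 members that stand for the factors, the amino acid enzymes and the ER chaperones, the genes nearest to them over the 24 libraries were found among 13678 genes, by the root mean square difference of log2 values centred on each gene's mean. These are descriptions over libraries that share embryos and stages. Nearest to *Ddit3* were *Dlg4*, *Tmem170b* and *6330415B21Rik*, each at 0.32 to 0.33, against a standard deviation of 0.85 for *Ddit3* itself. *Dlg4*, which encodes the postsynaptic scaffold PSD-95, had medians of 543 at E11.5, 1077 at E14.5, 1949 at 12 h and 1912 at 24 h, and *Ddit3* had 128, 208, 440.1 and 362. Nearest to *Asns* were the sterol enzyme gene *Msmo1* (0.34), *Cars* (0.36) and the lanosterol synthase gene *Lss* (0.36). *Msmo1* had medians of 761, 438, 1639 and 1749, and *Asns* 110.2, 76.8, 352 and 314. Nearest to *Hspa5* were *Sfr1* (0.12), the mitochondrial transaminase gene *Got2* (0.14) and *2810004N23Rik* (0.14). *Got2* had medians of 1138, 798, 687 and 837, and *Hspa5* 4876, 3260.0, 3412 and 3498, each highest at E11.5.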

How the data were processed

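The 24 libraries were made by oligo(dT) priming, so reads lie near the 3′ ends of transcripts. The authors aligned the reads with TopHat2 2.0.10 and Bowtie 1.0.0 to GRCm38 and counted them per gene with HTSeq 0.6.1, per the study's methods and the submitters' processing notes. The signal the authors deposited was the number of reads per gene over a size factor of the library, and how those factors were made is not given in the sources used here. Positions were taken from GENCODE vM21. Counting had been done on vM20.

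Whole reads could be recovered in 23 libraries (464180 of 464180 values above 0 within 0.05 reads), and 1 read in the cortex of control D is worth too nearly 1 to tell. The main test was therefore limma (3.58.1, R 4.3.3), two-sided, on log2(value + 1) with a mean-variance trend. Genes under a mean of 10 in the compared libraries were left out, p was adjusted by Benjamini-Hochberg, and the threshold was 0.05. Culture and age fits had genotype as a term. EdgeR 4.0.16 and DESeq2 1.42.0 were run on recovered reads where E11.5 was not involved. The fitting step was tested on simulated data.

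Other settings were a threshold of 0.1, a pseudocount of 0.1 or of 5, a minimum mean of 50 or none, TMM, quantile normalization, all libraries in 1 fit, terms for sex, title prefix or *Gm42418* share, the embryo as a block, and leaving out each library. The *Gm42418* term for the culture comparisons was chosen after seeing the data. Cortex and cultures with 1 number came from 1 embryo. Deviations from group means of same-numbered libraries correlated at -0.11 to 0.24 over 18 pairs (median 0.14, 12 above 0.1, 13678 genes).

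The members and lists were chosen with earlier results of these data known. All 10 members were named in each comparison, in each list up to 4 genes with the smallest p at 12 h over cortex, and as nearest genes the 3 for *Ddit3*, *Asns* and *Hspa5*. The symbol *Mars1* was matched as *Mars*. The motifs were counted in RefSeq promoters. Replicates were separate embryos. In the fits of genotype within a stage and of age, each embryo gave a single library, and p-values measure the spread between embryos. In the main fits that compare culture with cortex or the culture times, libraries of the same embryo entered as separate ones. Their p-values measure the spread between libraries, and only the fits with the embryo as a block use the pairing. Reads were not deduplicated by molecular identifiers as far as the sources used here state. The 3′ reads do not show the *Cep135* deletion and do not check the genotypes.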

Additional observations from a re-analysis of the deposited data

Results flagged for a closer look

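The values of *Trib3* went opposite ways with time in culture, and the share of all genes that did so was not counted. From 12 h to 24 h all 3 mutants had higher values, with 23.4, 11.6 and 12.5 at 12 h and 24.4, 25.3 and 23.6 at 24 h, and all 3 controls lower ones, with 42.5, 45.8 and 34.9 at 12 h and 32.8, 33.7 and 17.5 at 24 h. The test of that difference gave a log2 value of 1.24 (adjusted p = 1.0 from limma), which misses the threshold.

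The values of *Trib3* by genotype also pointed opposite ways in cortex and culture. In E14.5 cortex, where *Trib3* was under the filter and not tested alone, every mutant was above every control. That held for 7.02% of the genes tested there, a set without *Trib3*, and the share among genes under the filter was not counted. At 12 h every mutant was below every control, as in 5.94% of the genes tested at that time. The test of the change from cortex to 12 h gave -2.79 (adjusted p = 0.793 from limma). The cortex values rest on 0 to 6 reads. Mutant 6 and control 4 had 2 reads each, so their order (1.57 and 1.45) rests on the size factors. Groups of 3 libraries were not searched for outlying samples.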

How the results depend on the processing

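The number of members that passed at 12 h over cortex was 7, with *Trib3*, which was not counted above, and 5 to 7 under the alternatives. At 24 h over cortex it was 7, again with *Trib3*, and 6 to 8, and for age 4, and 3 to 4. It was 0 for genotype at E11.5, E14.5 and 12 h, for 24 h over 12 h and for the 4 interactions, under every alternative run. With the embryo as a block 7 members passed at 12 h and 7 at 24 h, and the block changed no call of a member. At 24 h, 1 member (*Asns*) passed for genotype with no filter on low genes. Over both cortices 1 member (*Sesn2*) passed for genotype, and 0 did under quantile normalization, with all 24 libraries in 1 fit and with a term for sex, and 0 to 1 without 1 library. No value of a member that was called changed sign. EdgeR and DESeq2 were not run for any comparison with E11.5, since whole reads of control D could not be told. Differences of low genes are limited by depth: *Trib3* in E14.5 cortex rests on at most 6 reads. The scaling alternatives left the median of all genes within 0.1 of 0 on the log2 scale. For all genes the number called at 12 h over cortex was 4107 and ran from 2025 to 5310, at 24 h over cortex 5644 and from 4146 to 6791, and for age 7247 and from 5706 to 8144. For 24 h over 12 h it was 39 and ran from 14 to 159, and for genotype at 12 h 0 and up to 182 and at 24 h 36 and up to 160. The cause of these changes was not tested.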
